A study of Mus musculus with 8 samples.

Results

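The genes described here encode the heat shock proteins, their J-domain partners, the cytosolic chaperonin ring, the BAG regulators and the heat shock factors Hsf1 and Hsf2. They were picked out by gene symbol, and 83 of the 22244 genes in the count table matched. Endoplasmic reticulum chaperones such as Hspa5 were left out by name. Although the set is meant as a cytosolic one, the symbols also bring in 8 mitochondrial chaperones and 7 J proteins of secretory pathway membranes, which are described apart. Lung RNA came from the right cranial lobes of adult male wild-type C57BL/6J mice, 4 of them untreated (control) and 4 injected with naphthalene, 1 library per mouse. Naphthalene is an aromatic hydrocarbon whose metabolites are toxic to the club cells of the mouse airway. How much was injected, in what carrier, at what age and how long before the lungs were taken is not given in the sources used here, so effects of the injection itself and of naphthalene cannot be told apart. Libraries were made from stranded total RNA and hold 10743842 to 16792306 counts each.

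Heat shock proteins keep other proteins folded. HSP70 binds exposed stretches of a client protein in a cycle driven by ATP, J proteins deliver the client and start ATP hydrolysis, and HSP110 and BAG proteins release the nucleotide so that the cycle can begin again. Clients may then pass to HSP90 or, in the case of actin and tubulin, to the chaperonin ring TRiC. The factor HSF1, held inactive in unstressed cells, switches on many of these genes when unfolded protein accumulates.

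Most of the change was an increase. Of the 83 genes, 71 had enough counts to be tested, and 27 were higher and 2 lower after naphthalene at an adjusted p under 0.05 (edgeR quasi-likelihood test, Benjamini-Hochberg adjustment over all 14192 tested genes). Over all tested genes 14.1% were called higher and 14.6% lower, against 38.0% and 2.82% of the tested chaperone genes. The median log2 fold change was 0.22 for the 71 genes and 0.01 for all tested genes. In size the changes were mostly modest, since 22 of the 27 higher genes rose by less than 1 on the log2 scale and 5 rose by more, namely Hspa1a, Hspa1b, Hspb7, Hspb1 and Dnajb1. All 4 naphthalene libraries lay on 1 side of all 4 controls for 27 of the 71 genes, or 38.0%, against 28.6% of all tested genes. Summed over the 83 genes, the level was 5065 to 6350 CPM in controls and 7171 to 8559 CPM after naphthalene, where CPM is the usual count relative to library size, here scaled by each library's TMM factor.

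**Figure D1:**
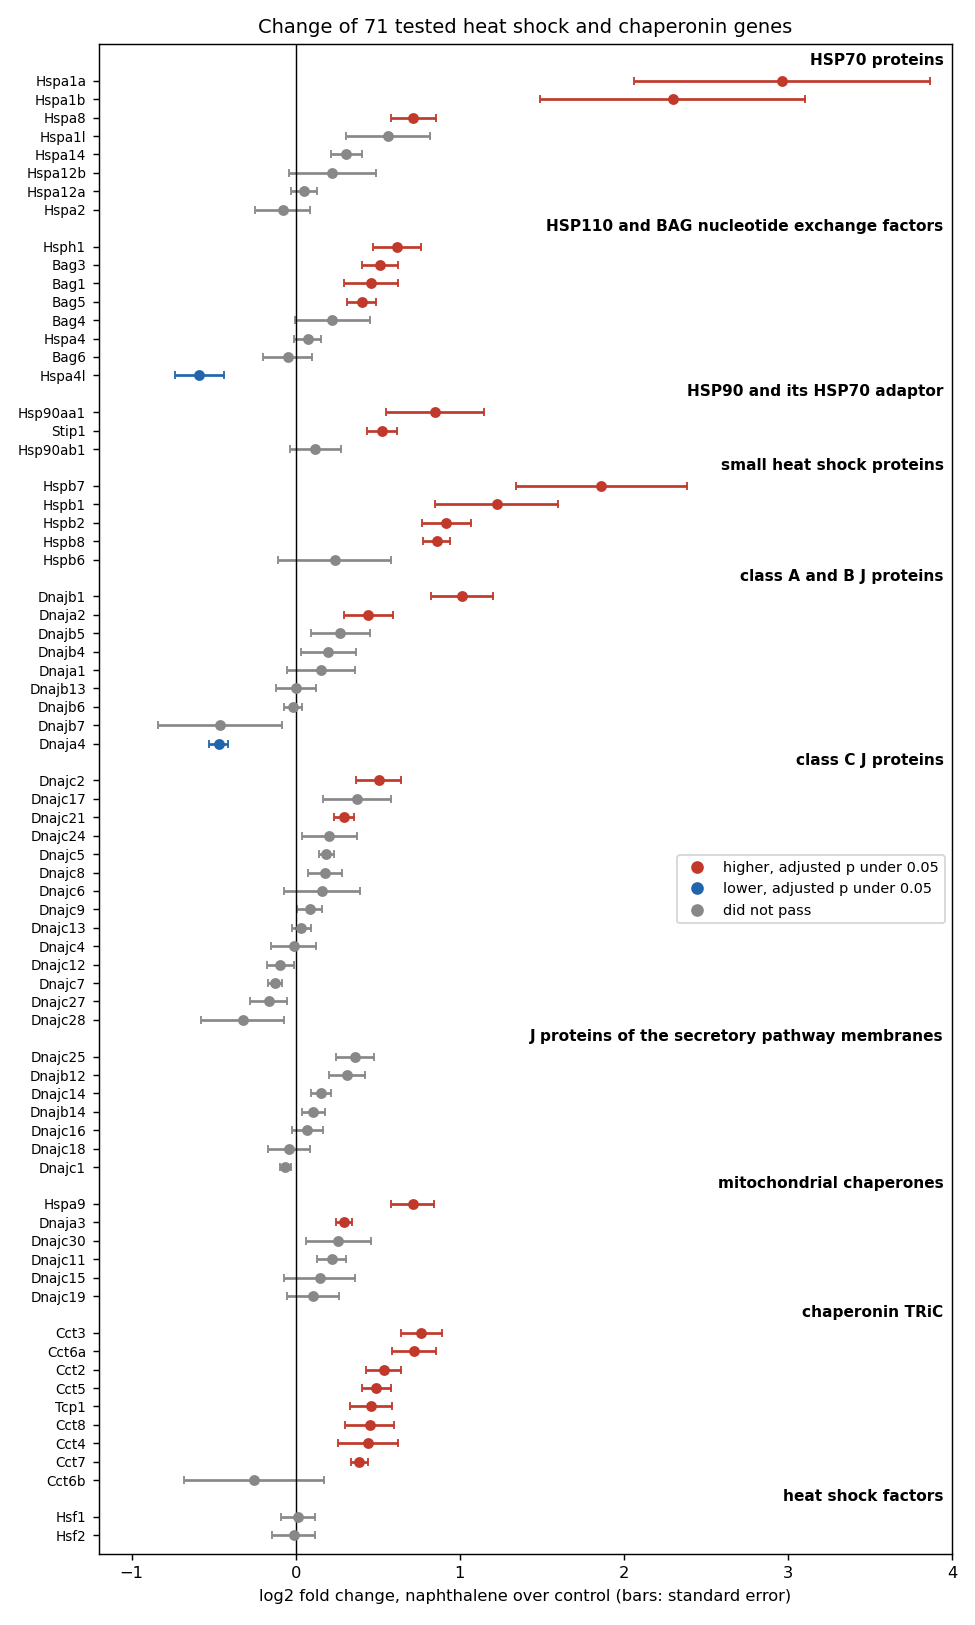
Log2 fold change (naphthalene over control, x axis) of the 71 tested genes grouped by role. Bars give the standard error of the difference in mean log2 CPM, not of the fitted change. Hspa1a and Hspa1b lie farthest to the right, at 2.96 and 2.30, with the widest bars, 8 of the 9 tested TRiC genes are higher, and Hspa4l and Dnaja4 are the 2 lower genes.

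Of the 12 genes that could not be tested, 5 are listed at 0 in all 8 libraries: Hspd1 and Hspe1, the mitochondrial chaperonin and its lid, and Bag2, Dnajb2 and Dnajb3. The RefSeq table places all 5 on chromosome 1, and of the 1172 genes in the count table that it places there 1159 are listed at 0 throughout, against 7.16% of genes on the other numbered chromosomes, X and Y. The zeros of these 5 genes are therefore not read as absence of expression. The other 7 untested genes (Cct8l1, Dnajb8, Dnajc22, Dnajc5b, Dnajc5g, Hspb3 and Hspb9) had at most 20 counts in any library.

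The tissue and library composition moved as well. Lung identity genes (Sftpc, Ager, Scgb1a1 and Cldn5) summed to 10360 to 14280 CPM in controls and 7997 to 11330 CPM after naphthalene. Of these 4 genes 1 was called, the club cell gene Scgb1a1, which fell by 1.85 on the log2 scale, while Sftpc, Ager and Cldn5 had log2 fold changes of 0.01, 0.27 and 0.22. All 4 club cell markers and 8 of 9 ciliated cell markers were lower, the club markers summing to 4787 to 9739 and then 989 to 2671 CPM and the ciliated markers to 602 to 980 and then 115 to 231 CPM. Neutrophil markers summed to 54.6 to 369 CPM in controls, control 3 being the highest, and to 190.5 to 467 CPM after naphthalene, with 0 of 3 tested markers past the threshold (2 had an unadjusted p under 0.05, DESeq2 called 0 and voom 2, and Cxcr2 is listed at 0). All 3 T cell and all 3 B cell markers were lower and 2 of 4 alveolar type 2 markers higher. Erythroid genes summed to 22.4 to 1218 CPM in controls and 43.7 to 2899 CPM after naphthalene, with 0 of 4 called (0 at an unadjusted p under 0.05, 0 with DESeq2 and 0 with voom). Of 10 tested immediate early genes, which respond to tissue handling, Junb was higher and Nr4a1 lower, and their list summed to 558 to 969 CPM in controls, again highest in control 3, and 653 to 904 CPM after naphthalene. The part these shifts play in the results below was not tested, and in whole lung fewer cells of a type cannot be told apart from less RNA per cell.

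The stress-inducible HSP70 genes Hspa1a and Hspa1b rose most. They are near-identical neighbours: 247 of the 250 bases before their start sites are the same, and 47.1% of the 100-base stretches of the Hspa1a transcript also occur in Hspa1b, so reads may be split between them in a way the counts do not show. The stretches printed here lie upstream of both genes and carry, in capitals, the letters GAANNTTC, the short form of the element that HSF1 binds (RefSeq promoters, build GRCm38, each read along the gene's strand).
Hspa1a, chr17:34972207-34972306, minus strand: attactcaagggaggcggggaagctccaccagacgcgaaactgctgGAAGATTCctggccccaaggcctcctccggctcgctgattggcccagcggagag
Hspa1b, chr17:34959289-34959388, minus strand: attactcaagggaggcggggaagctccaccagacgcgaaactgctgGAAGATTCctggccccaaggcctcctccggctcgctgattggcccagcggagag
Hspa1a stood at 2.78, 10.45, 59.3 and 11.6 CPM in control replicates 1 to 4 and at 205.5, 156, 121 and 168 CPM in naphthalene replicates 1 to 4. Every naphthalene library exceeded every control, but control 3 lay well above the other controls. The log2 fold change was 2.96 (SE 0.90, edgeR adjusted p = 0.00621), and without control 3 it was 4.27 (adjusted p = 0.000125). Hspa1b stood at 6.18, 16.4, 86.4 and 17.3 CPM in controls and at 208, 125, 115 and 169 CPM after naphthalene, again with control 3 high and no overlap. Its log2 fold change was 2.30 (SE 0.81, edgeR adjusted p = 0.0162), or 3.52 without control 3 (adjusted p = 0.000164). The Hspa1b call was lost without control 2 (adjusted p = 0.0511) or control 4 (adjusted p = 0.0541). With the counts of both genes summed before the fit, the log2 fold change was 2.60 (edgeR adjusted p = 0.0116).

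Hspa8, the constitutive HSP70 of the cytosol, was the most abundant per kilobase of transcript among the 70 tested genes of known transcript length. Hspa8 overlaps Snord14c, Snord14d and Snord14e in RefSeq, and its reads may be shared with those. Its values were 576, 818, 842 and 741 CPM in controls and 1090, 1270, 1329 and 1204 CPM after naphthalene. The groups did not overlap, and the gene rose by 0.72 on the log2 scale (SE 0.14, edgeR adjusted p = 0.00236). Per kilobase, Hspa1a and Hspa1b made up 1.29%, 2.67%, 12.6% and 3.15% of the summed level of Hspa1a, Hspa1b and Hspa8 in controls and 23.95%, 15.5%, 12.9% and 18.8% after naphthalene. Control 3 thus came close to the lowest naphthalene library, while the other controls stayed far below it. How reads matching both Hspa1a and Hspa1b were counted is not given, so these shares may be too low.
The other 5 HSP70 genes did not pass. Hspa14, which works with the J protein Dnajc2 at the ribosome, stood at 29.4, 27.1, 32.1 and 27.2 CPM and then at 32.4, 36.7, 40.8 and 33.3 CPM, without overlap but with an adjusted p of 0.0547 (edgeR, log2 fold change 0.31). It passed with DESeq2, with the replicate block, without control 3, naphthalene 1 or naphthalene 4, and without control 3 and naphthalene 1 together. Hspa2 and Hspa1l, the testis-rich forms, and the distant relatives Hspa12a and Hspa12b had log2 fold changes of -0.08, 0.56, 0.05 and 0.22, all with overlapping groups.

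**Figure D2:**
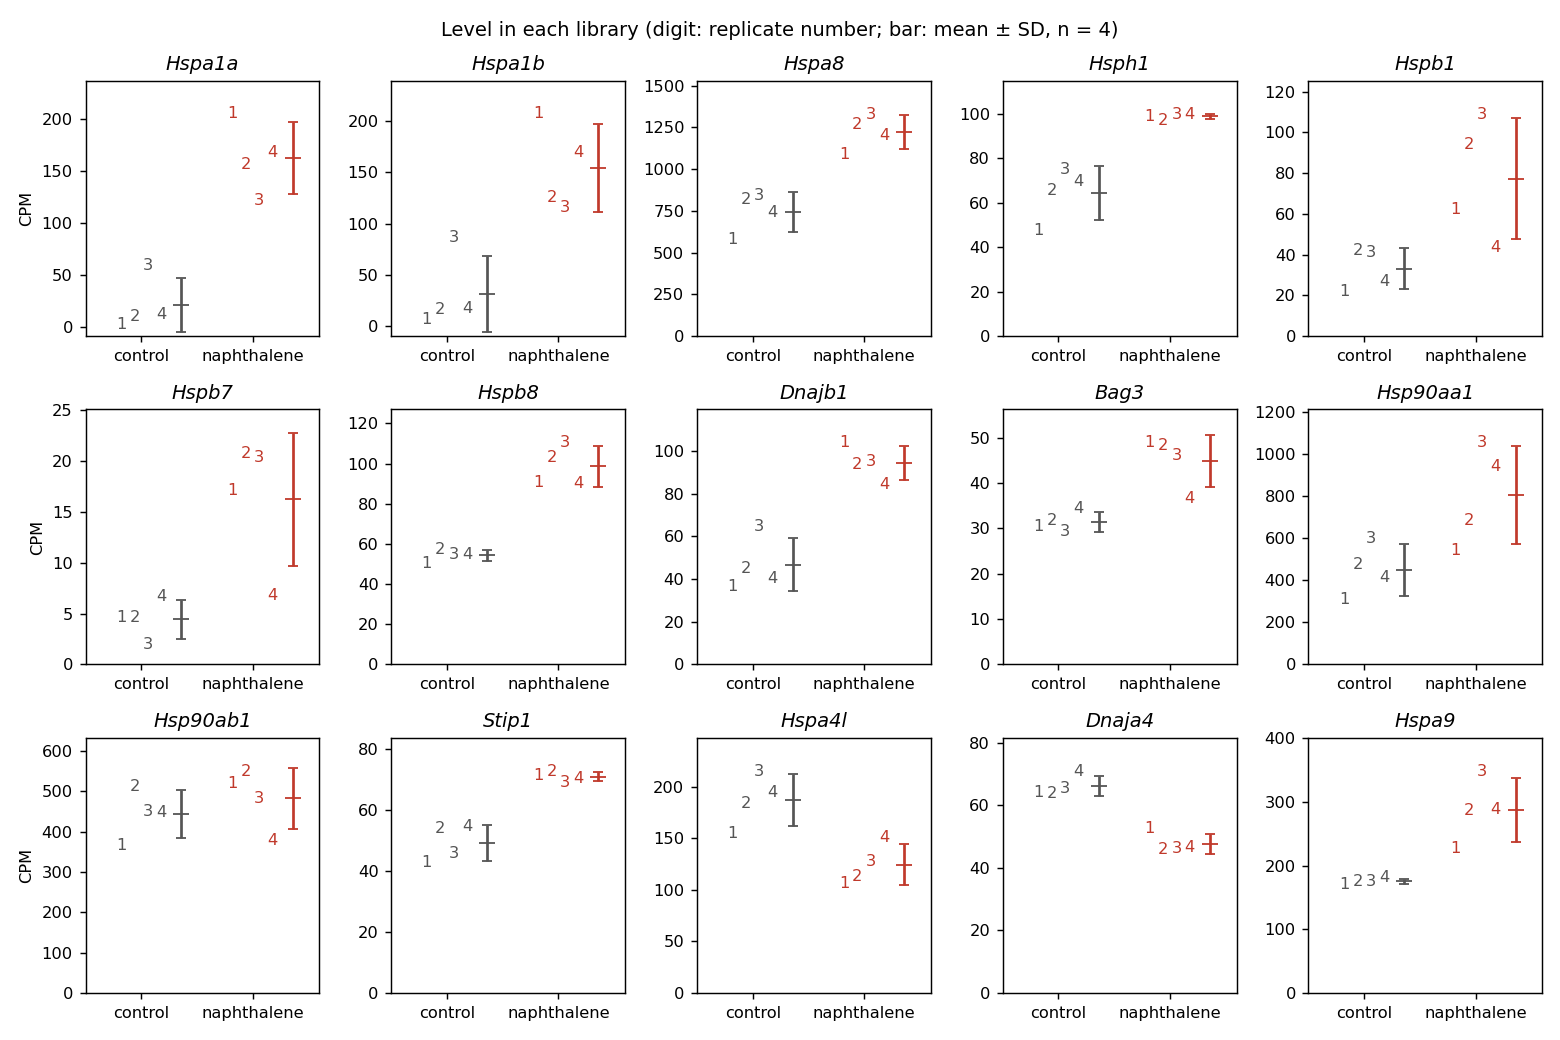
Level in CPM (y axis, from 0 or just below it) of 15 genes in each library, where the digit is the replicate number and the bar the mean ± SD of 4 libraries. Control 3 stands high for Hspa1a and Hspa1b, naphthalene 4 is the lowest naphthalene library for Hspb1 and Hspb7, and Hspa4l and Dnaja4 are lower after naphthalene.

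Among nucleotide exchange factors, 4 of 8 tested genes rose and 1 fell. Hsph1, an HSP110 protein, stood at 47.5, 65.5, 75.1 and 69.7 CPM in controls and at 98.8, 97.2, 99.9 and 99.7 CPM after naphthalene. All naphthalene libraries lay within a narrow band above the controls (log2 fold change 0.62, SE 0.15, edgeR adjusted p = 0.00431). Bag3, which links HSP70 to small heat shock proteins and to autophagy, stood at 30.4, 31.7, 29.3 and 34.3 CPM and then at 48.9, 48.2, 45.95 and 36.5 CPM. It rose by 0.52 (SE 0.11, edgeR adjusted p = 0.00621), with naphthalene 4 nearest to the controls. Bag5 and Bag1 rose by 0.40 and 0.46, and Bag1, whose groups overlapped, did not pass without control 1, 2 or 4 or naphthalene 3 or 4 (edgeR adjusted p up to 0.0962). Bag4, Bag6 and the main HSP110 form Hspa4 had log2 fold changes of 0.22, -0.05 and 0.07 and did not pass.
Hspa4l, another HSP110 gene, rich in testis, moved the other way. It stood at 154.5, 183, 215 and 194 CPM in controls and at 106, 113, 128 and 151 CPM after naphthalene, so that the highest naphthalene library lay just under the lowest control. The gene fell by 0.59 on the log2 scale (SE 0.15, edgeR adjusted p = 0.00688) and passed as lower in every alternative run. Its ratio to Hspa4 was 0.748 to 0.936 in controls and 0.510 to 0.585 after naphthalene. Ciliated, club, T and B cell markers, given above, were also lower in the same libraries. A link of any of these to Hspa4l was not tested.

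HSP90 has a stress-inducible and a constitutive cytosolic form, and their values differed in pattern. Hsp90aa1, the inducible form, stood at 307, 473, 601 and 413 CPM in controls and at 544, 684, 1055 and 944 CPM after naphthalene. The groups overlapped, since control 3 exceeded naphthalene 1, and the log2 fold change was 0.85 (SE 0.30, edgeR adjusted p = 0.0186). Leaving out control 1, control 4 or naphthalene 3 ended its call, with an adjusted p of 0.054 to 0.0584. Hsp90ab1, the constitutive form, stood at 367, 512, 451 and 447 CPM and then at 519, 550, 482 and 379 CPM. It did not pass (log2 fold change 0.12, SE 0.15, edgeR adjusted p = 0.543). Naphthalene 4, its lowest naphthalene library, was the next to highest for Hsp90aa1. Per kilobase the ratio of Hsp90aa1 to Hsp90ab1 was 0.644, 0.710, 1.02 and 0.708 in controls and 0.805, 0.955, 1.68 and 1.91 after naphthalene, with overlapping groups. Whether both genes changed to a different extent was not tested.
Stip1, the adaptor that holds HSP70 and HSP90 together, stood at 42.7, 54.1, 45.7 and 54.5 CPM in controls and at 71.3, 72.8, 69.2 and 70.4 CPM after naphthalene. It rose by 0.53 (SE 0.09, edgeR adjusted p = 0.00272) without overlap. Of 18 tested HSP90 cochaperones outside the set 2 were higher, Ptges3 (p23) by 0.46 and Fkbp5 by 2.82, the latter an immunophilin that the glucocorticoid receptor switches on. The other 16, among them Ahsa1, Cdc37, Fkbp4, Chordc1 and St13, did not pass, and the median over the list was 0.10.

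**Figure D3:**
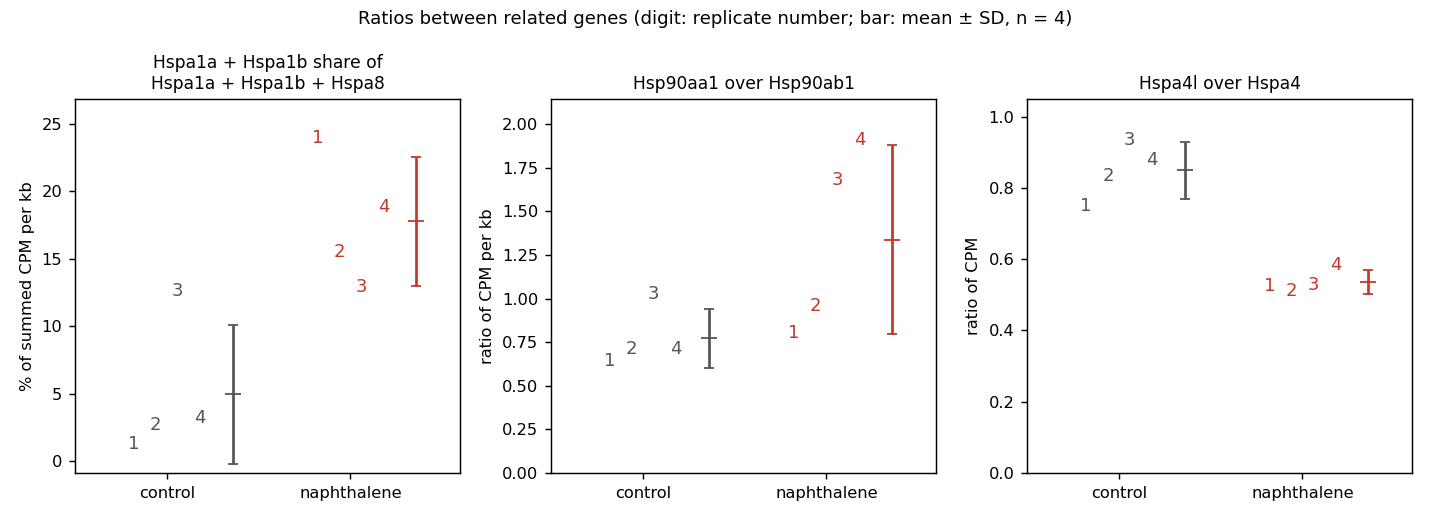
Ratios between related genes in each library (y axes: % of summed CPM per kb, ratio of CPM per kb, ratio of CPM), with the digit for the replicate number and the bar for the mean ± SD of 4 libraries. The share of Hspa1a and Hspa1b is 12.9% to 23.95% after naphthalene, the ratio of Hsp90aa1 to Hsp90ab1 overlaps between groups, and that of Hspa4l to Hspa4 does not.

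Small heat shock proteins, which hold unfolding proteins without ATP, rose in 4 of 5 tested cases. Hspb8, the partner of Bag3, had the smallest p of the whole set. It stood at 50.5, 57.0, 54.8 and 55.0 CPM in controls and at 90.4, 103, 110 and 90.2 CPM after naphthalene, a rise of 0.86 on the log2 scale (SE 0.08, edgeR adjusted p = 0.000124). Hspb1 (HSP27), which also guards actin filaments, carries 2 matches to the short heat shock element letters, printed in capitals (RefSeq promoter, build GRCm38).
Hspb1, chr5:135887766-135887865, plus strand: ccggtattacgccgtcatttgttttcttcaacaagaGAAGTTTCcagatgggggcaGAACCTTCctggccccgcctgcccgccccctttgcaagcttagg
Hspb1 stood at 21.96, 42.0, 41.2 and 26.9 CPM in controls and at 62.2, 94.1, 109 and 43.7 CPM after naphthalene. Naphthalene 4 lay barely above the highest control, and the log2 fold change was 1.22 (SE 0.38, edgeR adjusted p = 0.00840). Hspb7, a form known from heart and skeletal muscle, stood at 4.57, 4.57, 1.93 and 6.66 CPM and then at 17.1, 20.7, 20.4 and 6.78 CPM. Here too naphthalene 4 sat next to the highest control while the other 3 were far above. Hspb7 rose by 1.86 (SE 0.52, edgeR adjusted p = 0.00390). Of 7 tested cardiac muscle and 4 tested smooth muscle markers 0 passed (Tnnt2 and Des are listed at 0). At an unadjusted p under 0.05 there were 2 cardiac and 1 smooth muscle markers, all lower after naphthalene. These were Ryr2, Actc1 and Cnn1, with log2 fold changes of -0.50, -0.73 and -0.55. DESeq2 called 1 of each list and voom 0 of both. Of the tested markers, 2 cardiac (Myh6 and Myl7) and 0 smooth muscle ones had a positive log2 fold change. The cardiac markers summed to 192.5 to 567 CPM in controls and 259 to 409 CPM after naphthalene, and the smooth muscle markers to 179 to 379 and then 163 to 347.5 CPM.
Hspb2 was low, at 1.88, 2.54, 2.37 and 1.72 CPM in controls and 3.75, 3.72, 3.95 and 4.76 CPM after naphthalene. It rose by 0.92 (SE 0.15, edgeR adjusted p = 0.00769) without overlap. Hspb2 overlaps Cryab, a far more abundant small heat shock gene (85.35 ± 8.38 and 96.9 ± 2.56 CPM, SD, n = 4 each, edgeR adjusted p = 0.153), and since the strand setting of the counting is not given, reads of the pair may not be separable. Hspb6, at 2.197 to 6.02 and 4.57 to 6.19 CPM, did not pass (log2 fold change 0.24).

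Of 35 tested J protein genes, counting all classes and compartments, 5 rose and 1 fell, a share of higher genes near the 14.1% of all tested genes. Dnajb1, the HSP40 that works with the inducible HSP70 proteins, stood at 36.6, 45.1, 64.7 and 40.5 CPM in controls and at 103.8, 93.7, 95.1 and 84.3 CPM after naphthalene. Control 3 was again the highest control, but no group overlap occurred (log2 fold change 1.01, SE 0.19, edgeR adjusted p = 0.000951). Among the other class A and B genes Dnaja2 rose by 0.44 with overlapping groups, and its call was lost without control 1, 2 or 4 or naphthalene 2 or 3 (edgeR adjusted p up to 0.0792). Dnaja1, a heat-inducible class A partner of HSP70, stood at 130, 158, 203 and 178 CPM and then at 136, 178, 211.5 and 217.5 CPM. It did not pass (log2 fold change 0.15, SE 0.21, edgeR adjusted p = 0.524). Both it and Dnajb4 (0.20) passed only without control 3 and naphthalene 1 together, among the alternatives run. Dnajb5, Dnajb6, which keeps aggregation-prone proteins soluble, and Dnajb7 had log2 fold changes of 0.27, -0.02 and -0.46 and did not pass.
Dnaja4 was the second gene to fall. It stood at 64.3, 63.9, 65.55 and 70.97 CPM in controls and at 52.5, 45.85, 46.1 and 46.6 CPM after naphthalene. The groups were well apart, with a log2 fold change of -0.47 (SE 0.06, edgeR adjusted p = 0.00245). Dnaja4 passed as lower in every alternative run. Dnajb13, a component of the radial spokes of motile cilia, stood at 10.5, 9.58, 12.6 and 12.75 CPM in controls and 10.9, 10.2, 13.0 and 11.45 CPM after naphthalene. Its log2 fold change was 0.00 (SE 0.12, edgeR adjusted p = 0.989), in the same libraries in which Rsph1, another spoke gene, was lower by a log2 value of -1.79.

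Class C J proteins have varied tasks, and 2 of 14 tested genes rose (4 were higher without naphthalene 4, when Dnajc17 and Dnajc22, which was not tested with all 8 libraries, also passed). Dnajc2, the ribosome-bound partner of Hspa14, stood at 27.6, 29.8, 29.6 and 24.6 CPM in controls and at 32.2, 36.2, 45.4 and 45.05 CPM after naphthalene, rising by 0.51 (SE 0.14, edgeR adjusted p = 0.0142). Dnajc21, which acts in maturation of the large ribosomal subunit, rose by 0.29 and was near the threshold: it did not pass without a filter, without any 1 of the controls, or without naphthalene 2 or 3 (edgeR adjusted p up to 0.0976). The other 12 lay between -0.32 (Dnajc28) and 0.37 (Dnajc17). They included Dnajc5, the cysteine string protein, which stood apart between groups (142 to 158 and 159 to 174 CPM) without passing (edgeR adjusted p = 0.0953) except with DESeq2, Dnajc7, a cochaperone that binds both HSP70 and HSP90 (86.9 to 93.3 and 76.5 to 86.7 CPM, adjusted p = 0.263), the splicing-associated Dnajc8 (0.18), the histone chaperone Dnajc9 (0.08), the endosomal Dnajc13 (0.03) and the clathrin-uncoating auxilin Dnajc6 (0.16). Dnajc4, Dnajc12, Dnajc24 and Dnajc27 had log2 fold changes of -0.01, -0.09, 0.21 and -0.16.
Of the 7 J proteins of secretory membranes 0 passed with edgeR, 2 had an unadjusted p under 0.05, and DESeq2 called 1 and voom 0. The smallest p belonged to Dnajc25, at 15.2, 14.15, 14.15 and 16.6 CPM in controls and 15.6, 21.1, 19.9 and 21.1 CPM after naphthalene, with a log2 fold change of 0.36 (SE 0.12, edgeR adjusted p = 0.0538). It passed with DESeq2, without naphthalene 1, and without control 3 and naphthalene 1 together. Dnajb12 (0.31), Dnajb14 (0.11), Dnajc1 (-0.06), Dnajc14 (0.15), Dnajc16 (0.07) and Dnajc18 (-0.04) made up the rest, of which Dnajb12 passed without naphthalene 4.

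Mitochondrial chaperones were represented by Hspa9, the HSP70 that pulls proteins into the matrix. It stood at 170, 175, 175 and 181 CPM in controls, which lay close together, and at 226, 286, 348 and 288 CPM after naphthalene. Hspa9 rose by 0.71 (SE 0.13, edgeR adjusted p = 0.00143). Its J partner Dnaja3 rose by 0.29, but not without a filter, control 1, 2 or 4, or naphthalene 2 (edgeR adjusted p up to 0.0910). Dnajc11, Dnajc15, Dnajc19 and Dnajc30 had log2 fold changes of 0.22, 0.15, 0.10 and 0.26 and did not pass.

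The chaperonin ring TRiC is built of 8 different subunits in equal number, and all 8 of their genes rose, by 1.31 to 1.70 fold. The groups did not overlap for 6 of them. Cct3 stood at 74.8, 88.5, 79.0 and 84.6 CPM in controls and at 124, 145, 167.5 and 119 CPM after naphthalene, the largest change of the ring (log2 fold change 0.77, SE 0.12, edgeR adjusted p = 0.000817). Cct2 carries 1 match to the short heat shock element letters within the bases before its start site (RefSeq promoter, build GRCm38).
Cct2, chr10:117063376-117063475, minus strand: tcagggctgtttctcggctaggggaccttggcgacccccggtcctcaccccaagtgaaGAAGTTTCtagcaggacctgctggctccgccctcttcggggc
Cct2 stood at 113, 117, 130.5 and 131 CPM in controls and at 157, 185, 208 and 164 CPM after naphthalene, a rise of 0.54 (SE 0.11, edgeR adjusted p = 0.00363). Tcp1, the alpha subunit, stood at 107, 121, 129 and 127 CPM and then at 133, 167, 194 and 171 CPM, a rise of 0.46 (SE 0.13, edgeR adjusted p = 0.0134). Naphthalene 1 was the lowest naphthalene library for both genes and, for Tcp1, lay just above the highest control. Cct6a rose by 0.72, Cct5 by 0.49 and Cct7 by 0.39, all without overlap, while Cct8 (0.45) and Cct4 (0.44) overlapped.
Cct4 lay closest to the threshold of all called genes (edgeR adjusted p = 0.0469) and lost its call with limma voom and when control 1, 2 or 4 or naphthalene 2, 3 or 4 was left out (adjusted p up to 0.136). The Cct8 call was lost when control 1, control 2 or naphthalene 3 was left out (adjusted p up to 0.0789). Control 1 was the lowest control for 8 of 8 subunit genes, naphthalene 1 the lowest naphthalene library for 7 (all but Cct3) and naphthalene 3 the highest for 7 (all but Cct4). Per kilobase of the longest transcript, 7 subunits with a known length spanned 41.3 (Cct3) to 70.4 (Cct5) in controls, a 1.70-fold range, and 64.7 (Cct7) to 99.0 (Cct5) after naphthalene, a 1.53-fold range. Cct6a, at a mean of 130 CPM in controls and 214 CPM after naphthalene, had no matched length, so these ranges leave it out. Cct6b, the testis form of the zeta subunit, was at 0.435 to 1.67 and 0.655 to 1.28 CPM and did not pass. Tcp1, Cct6a, Cct7 and Cct8 overlap neighbouring genes in the RefSeq table, and their reads may be shared with those.
Of 8 tested genes of prefoldin, which hands clients to the ring, and of TRiC cofactors, Pfdn1 and Pfdn6 were higher, by 0.41 each. The rest, among them Vbp1, Uri1 and Pdcl, did not pass. Pfdn2, Pdcl3 and Txndc9 are listed at 0.

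**Figure D4:**
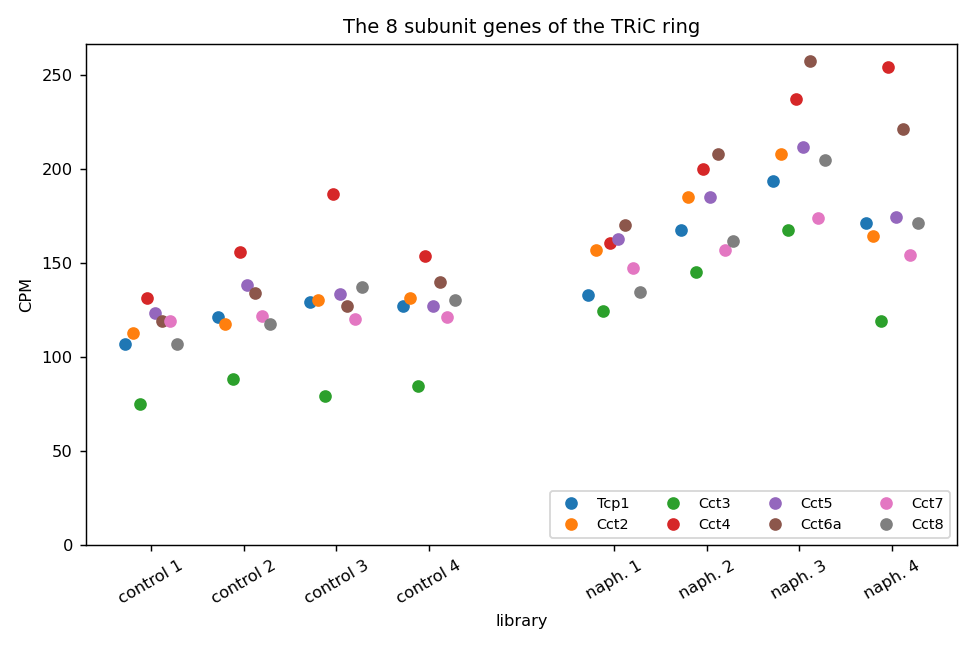
Level in CPM (y axis, from 0) of the 8 TRiC subunit genes in each library (x axis), 1 colour per gene. Control 1 is the lowest control for all 8, naphthalene 1 is the lowest naphthalene library for 7 and naphthalene 3 the highest for 7, not all the same genes, and Cct3 keeps the lowest CPM in every control.

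Of the 2 heat shock factors 0 passed with edgeR, DESeq2 or voom, and 0 had an unadjusted p under 0.05. Hsf1, the main factor of the stress response, stood at 30.75, 28.4, 25.3 and 31.0 CPM in controls and at 33.8, 27.5, 26.3 and 28.7 CPM after naphthalene. Its log2 fold change was 0.01 (SE 0.10, edgeR adjusted p = 0.950). Hsf2 stood at 35.3, 33.9, 43.4 and 41.2 CPM and then at 32.1, 36.85, 44.6 and 39.1 CPM. Its log2 fold change was -0.01 (SE 0.13, edgeR adjusted p = 0.953). HSF1 is mainly regulated as a protein, which these data do not measure. Among further targets and regulators of the factors, Ubb, Serpinh1, Cryab, Hsbp1 and Hspbp1 did not pass.

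Heat shock element letters were counted in RefSeq promoter windows of 300 bases, 250 before and 50 after each start site, on both strands, and 67 of the 83 genes had a window. The short form, GAANNTTC or TTCNNGAA, occurred in 9 of the 21 higher genes with a window (42.9%). It occurred in 5 of 34 tested genes that did not pass (14.7%) and in 14.1% of all tested genes. Of the 10 untested genes with a window, 5 held it as well, namely Cct8l1, Dnajc5g, Hspb3, Hspd1 and Hspe1. The 9 were Bag3, Cct2, Cct5, Cct6a, Hspa1a, Hspa1b, Hspb1, Hspb8 and Hsph1. Dnaja4, which fell, also held the short form, with matches centred at -86 and at -48 bases from its start site. Hspa1a and Hspa1b share 247 of the 250 bases before their start sites, so their matches do not count as separate cases. The matches of Bag3, Cct6a and Hspb8 lay after the start site, and the rest of the 9 held at least 1 before it. The long form, GAANNTTCNNGAA or TTCNNGAANNTTC, contains both short forms and occurred in 4 genes (Dnajb6, Hspd1, Hspe1 and Hsph1), or 5.97% of the 67 against 0.662% of all genes with a window. Hspd1 and Hspe1 are neighbours read in opposite directions whose windows overlap, so that their matches are not separate. These letters were not in the windows of Dnajb1 or Stip1. Hspa8 and Hsp90aa1 had no window. The counts are a description of these windows and do not show binding.

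Ordered by level per kilobase in controls, Hspa8 (311 ± 50.2), Hsp90ab1 (176 ± 23.6), Hsp90aa1 (137 ± 37.3) and Bag1 (95.2 ± 13.3) led the 70 tested genes of known transcript length (CPM per kb, mean ± SD, n = 4). The SDs of Hsp90ab1 and Hsp90aa1 overlap and control 3 reversed their order (178.8 and 183.1), so this order is not settled. The SDs of Hsp90aa1 and Bag1 also overlap, although Hsp90aa1 was above Bag1 in every control, most narrowly in control 1 (93.7 and 86.2). After naphthalene the order was Hspa8 (511 ± 42.8), Hsp90aa1 (246 ± 71.4), Hsp90ab1 (191.5 ± 29.6) and Bag1 (131 ± 26.1), and again the SDs of both HSP90 genes overlap. Hspa1a and Hspa1b stood at 7.09 ± 8.70 and 11.3 ± 13.2 in controls and at 54.8 ± 11.7 and 55.0 ± 15.2 after naphthalene.

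**Figure D5:**
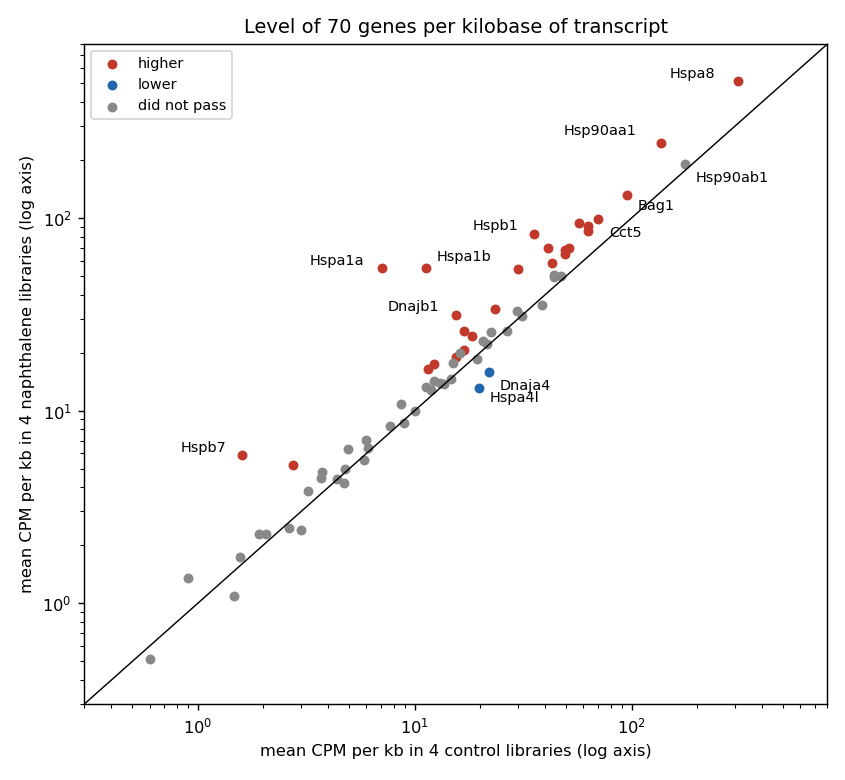
Mean CPM per kilobase of transcript in control (x axis) and naphthalene (y axis) libraries for 70 tested genes, both axes logarithmic, with the line of equal level. Hspa8 is at the top right in both groups (311 and 511), Hspa1a and Hspa1b lie far above the line, and Hspa4l and Dnaja4 lie below it.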

How the data were processed

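RNA from 4 control and 4 naphthalene-injected mice was sequenced. The authors deposited a table of raw counts, whole numbers by gene symbol without normalisation. Per the submitters' processing notes, which give no roles, the build was mm39 and the tools were edgeR 4.2.1, featureCounts 2.0.6, HISAT2 2.2.1 and Trim Galore 0.6.7. Which annotation and strand setting were used, and how reads with several matches were counted, is not given in the sources used here.

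Columns were assigned by library name, with 0 left over. The test was that of edgeR 4.0.16 in R 4.3.3 (TMM, filterByExpr with minimum count 10 and minimum total 15, quasi-likelihood test, group as the only term) at an adjusted p of 0.05. Levels are CPM. Each standard error is for the group means' difference in log2 CPM (prior count 2). It is not the error of the fitted edgeR log2 fold change printed beside it, which can differ from that difference. Levels per kilobase used the longest coding transcript of GENCODE M21. Chromosomes and promoters came from RefSeq on GRCm38, which is not the build of the counts.

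The members and lists were chosen with earlier results of these data known. Values by library are given for 17 defining genes, the 8 higher and the 8 lower genes (2 existed) of largest change past the threshold without overlap and with a mean of at least 1 CPM in the higher group, and the gene of smallest p per role. Values by library for Hspa14, Dnajb13 and the ratios were added after they had been seen. Within groups, chi-square over degrees of freedom was 5.73 to 51.4 between libraries, above sampling noise. The libraries thus differ by more than counting alone gives, which cannot show that they come from separate mice. Each was taken as a replicate from its label. On simulated data for naphthalene against control (14094 genes), 90% of 50 genes at a log2 change of 1 and 87.2% of 47 at -1 were recovered, with 7 false calls among 187. Smaller changes, which most of the called chaperone genes had, were not simulated, so their recovery is not known. Alternatives were RLE scaling, no filter, a CPM of 1 in 4 libraries, DESeq2 1.42.0, voom in limma 3.58.1, a replicate block, each library left out, control 3 and naphthalene 1 left out together, and summed Hspa1a and Hspa1b. Part of the list of further heat shock factor targets is not reported here.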

Additional observations from a re-analysis of the deposited data

Results flagged for a closer look

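In 10 of 142 groups of 4 libraries (71 genes, 2 groups each) 1 library lay far from the other 3 by Dixon's criterion, or 7.04% where chance flags about 1 in 20 groups. Control 3 stood high for both inducible HSP70 genes, with Hspa1a at 59.3 CPM against 2.78 to 11.6 in the other controls and Hspa1b at 86.4 against 6.18 to 17.3. Control 3 was also high for Bag1 (155 CPM against 116 to 122), and neutrophil markers summed to 369 CPM there against 54.6 to 85.6 in the other controls, a coincidence whose part was not tested. Naphthalene 4 stood apart for 3 genes: high for Bag1 (229 CPM against 155 to 166) and low for Dnajb5 (10.4 against 15.7 to 16.5) and Hspa2 (11.4 against 14.5 to 15.1). Hspa2 was also high in control 4 (19.5 CPM against 12.7 to 13.7). The remaining values were Dnaja4 in naphthalene 1 (52.5 CPM against 45.9 to 46.6), Dnajc6 in naphthalene 2 (5.74 against 10.1 to 10.8) and Dnajc1 in naphthalene 3 (106 against 100.4 to 100.6).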

How the results depend on the processing

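The number of chaperone genes called higher, 27, stayed within 1.5 times under every alternative run. It was 27 with RLE scaling, 25 without a filter, 30 with DESeq2, 26 with voom and 33 without control 3 and naphthalene 1 together, and 20 to 31 with each library left out. The number lower was 2 throughout. Over all genes, 1397 to 2465 were higher and 1513 to 2593 lower with each library left out. With the replicate number as a block, 28 chaperone genes were higher and 2 lower, and Hspa14 was the only call of the 71 that changed. Over all tested genes the block gave 4363 calls, against 4075 without it. The labels do not say whether the numbers pair mice. Deviations of same-numbered libraries correlated by 0.287, 0.033, 0.184 and -0.093 across genes, and those of differently numbered libraries by -0.402 to 0.354. These correlations cannot exclude a day or batch shared by libraries of the same number. Of the 29 called genes, 21 kept their call under every alternative, and the 8 that lost it in some are named with their values above. The 42 genes that did not pass included 11 that passed under at least 1 alternative. Depth limits the 7 genes with at most 20 counts: 3 counts correspond to 0.179 to 0.279 CPM per library.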

Other observations

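Several features outside the main comparison stand in the data as values only. Dnajc22, an untested J protein gene with few counts, stood at 0.0879 to 0.628 CPM in controls and at 0.733 to 1.30 CPM after naphthalene, without overlap. It was tested and passed without control 1 and without naphthalene 4 (edgeR adjusted p = 0.0287 and 0.025). The ratio of Hspa1a to Hspa1b was 0.449, 0.637, 0.687 and 0.672 in controls and 0.989, 1.25, 1.05 and 0.993 after naphthalene, also without overlap, although shared reads make the split between these copies uncertain. The per-library order differed between gene groups: in the naphthalene libraries Hspa1a was highest in replicate 1 and lowest in replicate 3, whereas replicate 1 was the lowest for 7 of 8 TRiC subunit genes (all but Cct3) and replicate 3 the highest for 7 (all but Cct4). Summed small heat shock genes stood at 82.7 to 113 CPM in controls and 152 to 249 CPM after naphthalene.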
